A study of Mus musculus with 9 samples.

Results

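The expression of 10 transcription factors of columnar epithelium and foregut endoderm was followed in the esophagus of newborn mice: Foxa1, Foxa2, Gata4, Gata6, Hnf4a, Sox9, Elf3, Ehf, Nkx2-1 and Foxe1. They were taken as every non-control probe whose gene name on the array equals one of these symbols, which gave 19 of 41174 probes, and all 10 genes were among the 22651 genes tested. All mice were of the C57BL/6J background strain at postnatal day 0, and the groups were wild type (n = 4), p63-/- (n = 3) and p63-/-;Cdx2 (n = 2), the last combining the p63 knockout with a transgene that the study's design names Villin-Cdx2. Villin is a gene of intestinal columnar epithelium whose promoter is widely used to drive transgenes there. Total RNA of esophageal tissue was labelled with Cy5 and hybridised against a Cy3-labelled reference RNA from 11 mouse cell lines, with no dye swap. The labels call the samples biological replicates, number the p63-/-;Cdx2 samples out of 3, of which 2 were analysed here, and do not say whether animals were pooled.

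p63, encoded by Trp63, is the factor that stratified squamous epithelia need to form, and an esophagus that lacks it keeps a columnar lining. FOXA and GATA factors open chromatin and set endoderm identity early in the gut tube, HNF4A marks gastric, intestinal and hepatic epithelium, and the epithelial ETS factors ELF3 and EHF act in the differentiation of both columnar and stratified layers. NKX2-1 marks the ventral foregut that gives rise to trachea, lung and thyroid, FOXE1 marks the thyroid and pharyngeal to esophageal foregut, and SOX9 is found in progenitors of several endodermal epithelia and in cartilage. The comparisons ask how these factors stand when p63 is missing and when the Cdx2 transgene is added to that loss.

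Of the 10 factors, Elf3 and Foxe1 were called lower in the p63-/-;Cdx2 group than in wild type (limma adjusted p under 0.05). On the log ratio 0.971% of all genes were called lower there, and both calls were lost in most fits that left out 1 array. No factor was called higher in any comparison, and few of all 22651 genes were. On the log ratio 13 genes were called higher in the p63-/- group than in wild type. In the p63-/-;Cdx2 group 0 were called higher than in the p63-/- group and 98 higher than in wild type. In the sample channel these counts were 175, 10 and 197. In the sample channel Nkx2-1 stood higher by 1.96 in the p63-/-;Cdx2 group than in wild type but was not called (limma adjusted p = 0.0856). The Elf3 difference was 2.29-fold on the log ratio of sample over reference and 3.15-fold in the sample channel. Foxe1, which was not well above background in that group, measured 2.89-fold lower on the log ratio and 4.65-fold lower in the sample channel. In the p63-/- group the means of both genes lay between those of the other groups and neither was called against wild type. Array weights did call Foxe1 lower there in the sample channel (-1.31, limma adjusted p = 0.0262). With these weights 495 of 22651 genes were called lower in that comparison, against 227 without them. The 3 factors that stand for the early columnar foregut, Foxa1, Foxa2 and Nkx2-1, were well above background on all 9 arrays, and for each of them the level in wild type replicate 3 was the lowest of all arrays.

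The arrays were similar in depth, with 30038 to 33249 probes well above background and a median net sample intensity of 250 to 392. Each genotype was hybridised on a slide of its own, and for none of the comparisons below can slide and genotype be told apart. The brightest Trp63 probe had log2 ratios of 3.52, 3.78, 3.39 and 4.13 on the wild type arrays, 2.74, 2.73 and 2.73 on the knockout arrays and 3.37 and 3.09 on the p63-/-;Cdx2 arrays. It was below every wild type array in the knockout but far from background, and since the position of the probe against the deleted part is not given in the sources used here, it does not check the labels. The source label of wild type replicate 4 reads p63-/- while its title and genotype say wild type, and its log2 ratio of 4.13 on the brightest Trp63 probe was the highest of the 9. On none of the 9 arrays was the Cdx2 probe well above background, so the p63-/-;Cdx2 samples are called the Cdx2-labelled group from here on. Squamous genes served as a check of the tissue: of 21 measured, 11 were lower in the knockout and 14 in the Cdx2-labelled group than in wild type, by medians of -1.48 and -1.83 (log2 ratio) against 0.02 and -0.00 over all genes. The samples also held RNA of neighbouring organs, with the lung surfactant gene Sftpc at 15.72 to 18.71 (log2 sample intensity) on every array. In such bulk tissue, fewer cells of a type and less RNA per cell cannot be told apart.

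**Figure D1:**
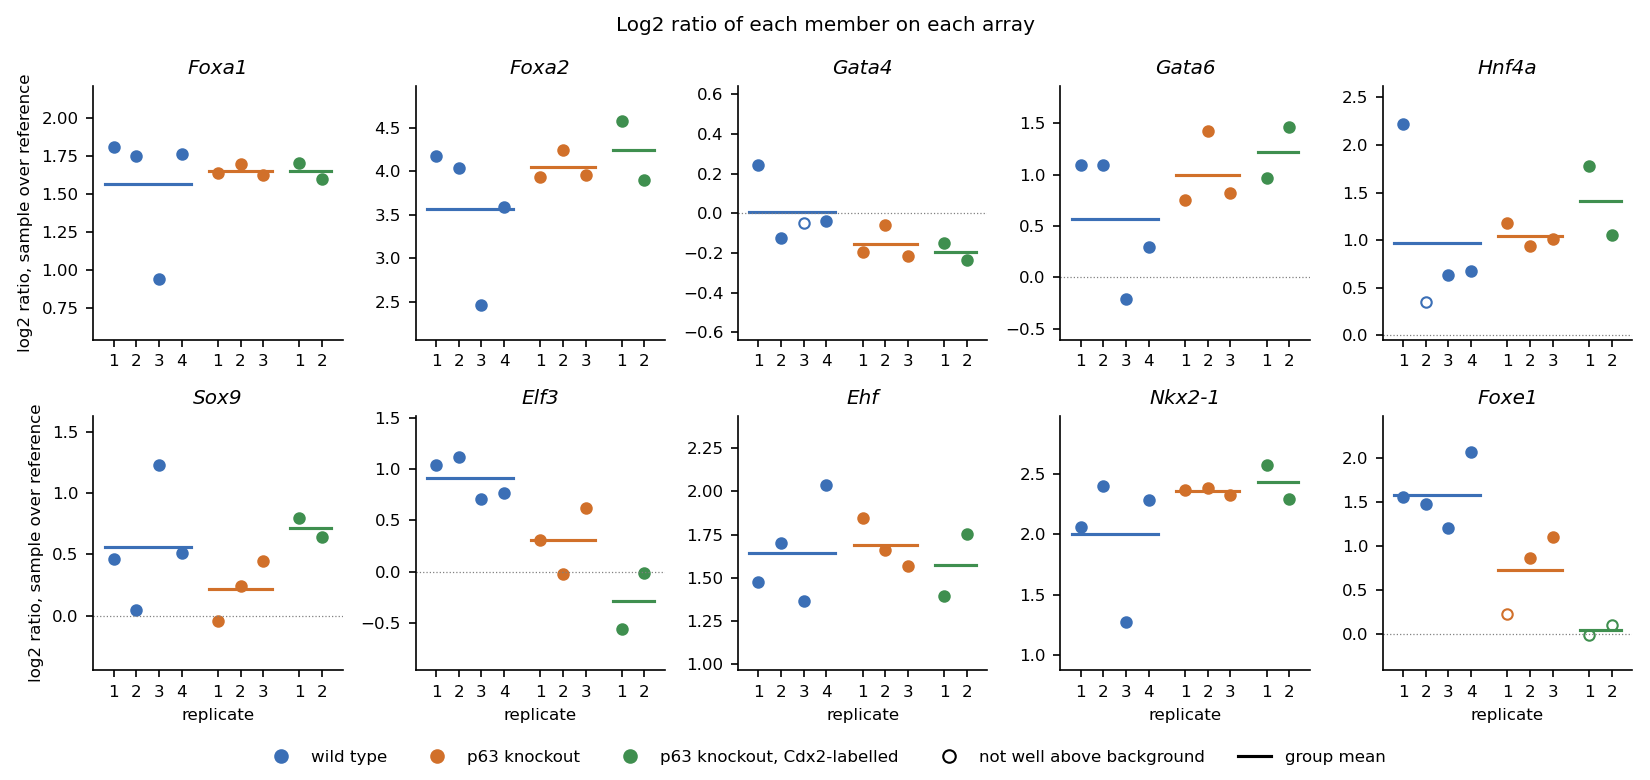
Log2 ratio of sample over reference RNA for each of the 10 factors (y axis) on each array (x axis, replicate number within wild type, p63 knockout and Cdx2-labelled group). Points are arrays, open where the sample channel was not well above background, and bars are group means. Elf3 and Foxe1 step down from wild type to the Cdx2-labelled group, while wild type replicate 3 has the lowest point for Foxa1, Foxa2, Gata6, Ehf and Nkx2-1.

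ELF3 is an ETS factor of differentiating epithelium, read here by a 60-base probe at chr1:137150328-137150387 (mm9, minus strand). Its log2 ratio was 1.04, 1.11, 0.71 and 0.77 on the wild type arrays, 0.31, -0.02 and 0.62 on the knockout arrays and -0.56 and -0.02 on the Cdx2-labelled arrays. Every wild type array was above every array of the other groups, and the knockout and Cdx2-labelled groups met at their edge, with knockout replicate 2 level with Cdx2-labelled replicate 2. The group means were 0.91 ± 0.20 (SD, n = 4), 0.30 ± 0.32 (SD, n = 3) and -0.29 ± 0.38 (SD, n = 2). Elf3 fell by 1.20 on the log2 scale from wild type to the Cdx2-labelled group (SE 0.22, 95% interval -1.69 to -0.70, limma adjusted p = 0.0463). Its difference from wild type to the knockout was -0.61 (SE 0.19, interval -1.04 to -0.17, limma adjusted p = 0.434), and from knockout to the Cdx2-labelled group -0.59 (SE 0.23, limma adjusted p = 0.405). These comparisons share arrays, so the steps are not independent of each other.

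The sample channel alone gave Elf3 the same order. Its log2 intensity was 11.65, 11.49, 11.01 and 10.93 on the wild type arrays, 10.27, 9.91 and 10.81 on the knockout arrays and 9.36 and 9.87 on the Cdx2-labelled arrays. No array of a group overlapped another group, and Elf3 fell by 1.66 from wild type to the Cdx2-labelled group, which is 3.15-fold (SE 0.30, limma adjusted p = 0.0344). The reference channel, which holds the same RNA on every array, read 10.16 to 10.61 on the wild type arrays, 9.93 to 10.19 on the knockout arrays and 9.89 to 9.92 on the Cdx2-labelled arrays. The reference thus stood lower by 0.46 in the Cdx2-labelled group than in wild type (difference -0.46, SE 0.12, limma adjusted p = 0.305), in the direction of the sample channel; its part in the result was not tested.

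The Elf3 promoter is shown because ETS factors bind a GGAA core and the members of this family were followed together. The 250 bases before the RefSeq start of Elf3 (GRCm38.p6, chr1:135258473-135258722, minus strand) are printed 5′ to 3′, with each GGAA or its reverse complement TTCC in capitals.
Elf3 promoter: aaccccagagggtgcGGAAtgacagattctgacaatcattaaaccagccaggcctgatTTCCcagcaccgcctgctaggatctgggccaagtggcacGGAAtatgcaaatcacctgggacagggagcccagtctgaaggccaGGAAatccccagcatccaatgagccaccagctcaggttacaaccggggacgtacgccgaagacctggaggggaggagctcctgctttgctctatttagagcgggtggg
The window holds 4 cores, and 93.4% of 32851 RefSeq promoters of the same length hold at least 1 on either strand. No p53 family decamer, which 7.13% of those promoters hold, and no CDX motif TTTATNG, which 9.81% hold, was found in it on either strand. The same held for the other promoters with an entry, those of Foxa1, Foxa2, Hnf4a and Nkx2-1. A match is only a run of letters, and no match says nothing about binding elsewhere.

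EHF, the closest ETS relative of ELF3 among the factors followed, had no such step. Its brightest probe had log2 ratios of 1.48, 1.70, 1.37 and 2.03 on the wild type arrays, 1.85, 1.66 and 1.57 on the knockout arrays and 1.40 and 1.76 on the Cdx2-labelled arrays. The groups overlapped fully, and the difference from wild type to the Cdx2-labelled group was -0.07 (SE 0.19, 95% interval -0.51 to 0.37), an interval that leaves out a shift as large as that of Elf3. Whether the Elf3 and Ehf differences differ from each other was not tested. The Ehf probes are printed because each crosses an intron of the gene on the genome and they read separate stretches of its coding sequence.
Ehf probe at transcript position 196: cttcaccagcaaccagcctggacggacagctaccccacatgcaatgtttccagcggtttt
Ehf probe at transcript position 586: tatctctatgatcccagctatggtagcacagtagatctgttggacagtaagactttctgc
The probe at position 196 had log2 ratios of 0.28 to 0.97 on the wild type arrays, 0.56 to 0.73 on the knockout arrays and 0.52 to 0.56 on the Cdx2-labelled arrays. The third Ehf probe, at position 3533, read 1.47 to 2.54, 1.97 to 1.99 and 1.54 to 2.46 in the same order, and on each of the 3 probes the wild type arrays spanned those of the other groups. Among 14 other ETS factors measured, 0 were called in any comparison on either scale; the nearest on the log ratio were Fli1, a factor of endothelial and blood cells, at 0.45 from wild type to the knockout (limma adjusted p = 0.281), and Etv5, a factor of growing epithelial tips in the lung and other organs, at 0.68 from wild type to the Cdx2-labelled group (limma adjusted p = 0.0945).

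FOXE1 is a forkhead factor of the thyroid and pharyngeal foregut, read by the following probe at chr4:46358001-46358060 (mm9, plus strand), shown because 75.0% of its bases are G or C and because the result for this gene rests on it alone.
Foxe1 probe: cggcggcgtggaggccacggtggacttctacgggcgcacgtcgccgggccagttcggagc
The log2 ratio of Foxe1 was 1.56, 1.48, 1.20 and 2.07 on the wild type arrays, 0.23, 0.86 and 1.10 on the knockout arrays and -0.01 and 0.10 on the Cdx2-labelled arrays. The wild type arrays were above all others, and the values of the Cdx2-labelled arrays and of knockout replicate 1 come from signals at background. It fell by 1.53 from wild type to the Cdx2-labelled group (SE 0.28, 95% interval -2.17 to -0.90, limma adjusted p = 0.0466). The difference from wild type to the knockout was -0.85 (SE 0.24, limma adjusted p = 0.372) and from the knockout to the Cdx2-labelled group -0.69 (SE 0.29, limma adjusted p = 0.432).

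Foxe1 was dim outside wild type. Its sample channel was not well above background in knockout replicate 1 and in both Cdx2-labelled replicates, and its reference channel was well above background on 4 of the 9 arrays, so on the other arrays its ratio was taken near background. The log2 sample intensity was 8.33, 8.29, 9.10 and 8.94 on the wild type arrays, 6.64, 7.43 and 7.73 on the knockout arrays and 6.39 and 6.51 on the Cdx2-labelled arrays. Wild type arrays were all above the rest, and the values of knockout replicate 1 and of both Cdx2-labelled arrays, being at background, have no order among them. For a group that is dim throughout, each dim value was replaced by the lowest value well above background on that array where that was higher. For Foxe1 the probe's own values were the higher, with a mean of 6.45. The fold differences are therefore the measured ones and not lower limits. Foxe1 measured 4.65-fold lower in the Cdx2-labelled group than in wild type (sample channel, limma adjusted p = 0.0185). On the log2 scale this was -2.22, with a confidence interval of -2.98 to -1.45. Against the knockout, where 2 of 3 arrays were above background, it measured 1.76-fold lower and was not called (limma adjusted p = 0.277). Over the processing alternatives the sample channel difference from wild type to the Cdx2-labelled group ran from -5.51 to -1.88. The sample channel difference from wild type to the knockout was -1.40 (SE 0.29, limma adjusted p = 0.0661). The Foxe1 reference channel, which holds the same RNA on every array, moved in the same direction. Its difference from wild type was -0.55 in the knockout (SE 0.26, limma adjusted p = 0.212). In the Cdx2-labelled group it was -0.68 (SE 0.30, limma adjusted p = 0.494). The part of the reference in the Foxe1 differences was not tested.

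**Figure D2:**
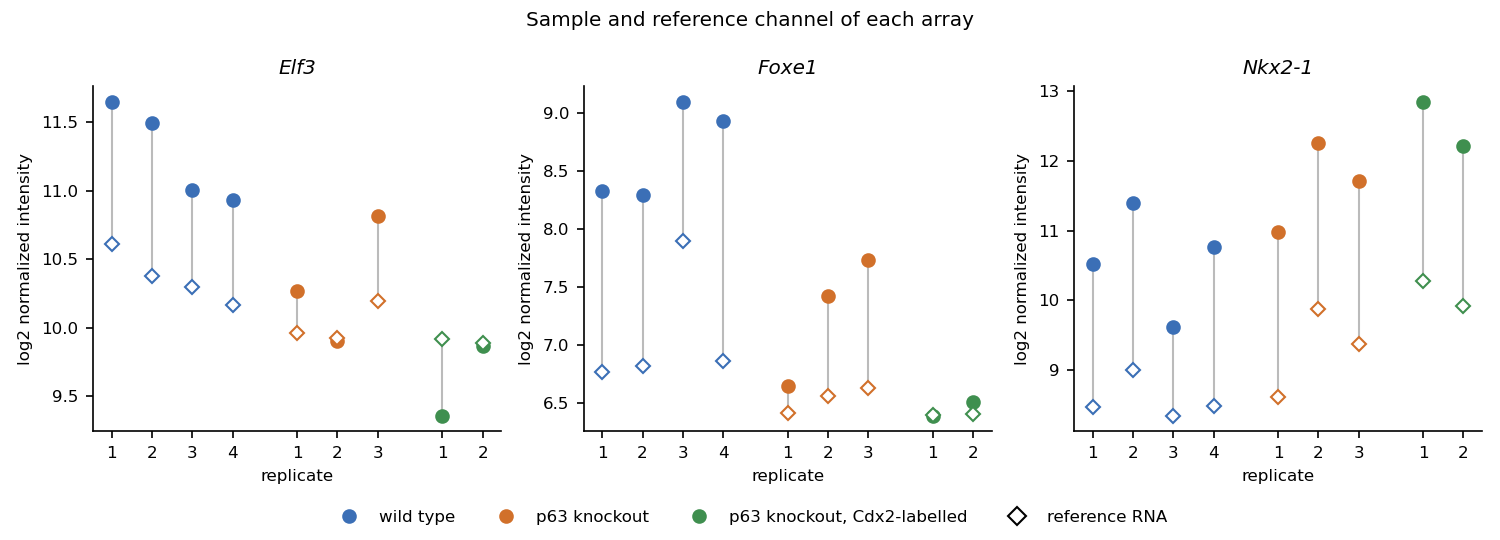
Log2 normalized intensity (y axis) of the sample channel (filled circles) and of the common reference RNA (open diamonds) for Elf3, Foxe1 and Nkx2-1 on each array (x axis, replicate number within each genotype). For Foxe1 the sample channel comes down onto the reference channel in the Cdx2-labelled group. For Elf3 it lies below the reference in Cdx2-labelled replicate 1 (9.36 against 9.92) and meets it in Cdx2-labelled replicate 2 and knockout replicate 2. For Nkx2-1 both channels are higher in the Cdx2-labelled group, with the reference at 10.27 and 9.91 against 8.34 to 8.99 in wild type.

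Thyroid, a known site of Foxe1, contributed RNA in amounts that varied between arrays. The thyroglobulin gene Tg had log2 sample intensities of 7.87, 8.36, 17.62 and 16.90 on the wild type arrays, 12.94, 16.07 and 16.26 on the knockout arrays and 8.23 and 12.42 on the Cdx2-labelled arrays. In the sample channel wild type replicates 3 and 4 were highest in both Tg and Foxe1. Knockout replicate 1, at background in Foxe1, was the lowest knockout array in both. The Foxe1 values of the Cdx2-labelled arrays were at background and give no order. Across genotypes, wild type replicates 1 and 2 were low in Tg and had Foxe1 at 8.33 and 8.29. Knockout replicates 2 and 3 were high in Tg and had lower Foxe1, at 7.43 and 7.73. On the log ratio, wild type replicate 3 was the lowest wild type array in Foxe1, at 1.20 against 1.48 to 2.07. Its Foxe1 reference channel read 7.90, against 6.77 to 6.86 on the other wild type arrays. The summed sample intensity of 13 measured thyroid genes was 4171 to 221452 on the wild type arrays, 13296 to 92738 on the knockout arrays and 6480 to 10291 on the Cdx2-labelled arrays, so the last group lay within the wild type range. The part of thyroid RNA in the Foxe1 result was not tested. In that list 1 gene, Duox1, an oxidase that supplies hydrogen peroxide in thyroid and in other epithelia, fell by 1.16 in the knockout (limma adjusted p = 0.0356) and by 1.20 in the Cdx2-labelled group (limma adjusted p = 0.0323) against wild type.

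The forkhead factors FOXA1 and FOXA2 are pioneer factors of all endoderm. Foxa2 had log2 ratios of 4.18, 4.04, 2.46 and 3.59 on the wild type arrays, 3.94, 4.24 and 3.96 on the knockout arrays and 4.59 and 3.91 on the Cdx2-labelled arrays. Wild type replicate 3 lay apart below all the rest, and the other wild type arrays overlapped both other groups. The differences were 0.48 (SE 0.39, 95% interval -0.41 to 1.37) from wild type to the knockout and 0.68 (SE 0.44, interval -0.33 to 1.69) to the Cdx2-labelled group. Without wild type replicate 3 they were 0.11 and 0.31. Scaling the log ratios between arrays turned the first to -0.21, so it has no settled direction.

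Foxa1 behaved in the same way at a smaller range. Its log2 ratio was 1.81, 1.75, 0.94 and 1.76 on the wild type arrays, 1.64, 1.70 and 1.62 on the knockout arrays and 1.70 and 1.60 on the Cdx2-labelled arrays. Apart from wild type replicate 3, all arrays lay within 1.60 to 1.81. The difference from wild type was 0.09 for the knockout (SE 0.20, 95% interval -0.37 to 0.55) and 0.09 for the Cdx2-labelled group (SE 0.23, interval -0.44 to 0.61), and without wild type replicate 3 both were -0.12.

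NKX2-1 directs the lung and thyroid fate of the ventral foregut. Its log2 ratio was 2.06, 2.40, 1.27 and 2.28 on the wild type arrays, 2.37, 2.39 and 2.33 on the knockout arrays and 2.58 and 2.30 on the Cdx2-labelled arrays. The groups overlapped, wild type replicate 3 was again the lowest array, and the differences from wild type were 0.36 for the knockout (SE 0.25, 95% interval -0.21 to 0.92) and 0.43 for the Cdx2-labelled group (SE 0.28, interval -0.20 to 1.07). Without wild type replicate 3 they were 0.11 and 0.19. In the sample channel the levels were 10.53, 11.39, 9.62 and 10.77 on the wild type arrays, 10.98, 12.26 and 11.71 on the knockout arrays and 12.85 and 12.21 on the Cdx2-labelled arrays. There the Cdx2-labelled arrays were above all wild type arrays, by 1.96 (SE 0.50, limma adjusted p = 0.0856). The reference channel of the Nkx2-1 probe, which holds 1 RNA throughout, differed by 1.52 between the same groups (SE 0.33, limma adjusted p = 0.191), and the part of this shift in the sample channel difference was not tested.

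The lung surfactant gene Sftpc, a marker of alveolar cells that also express Foxa2 and Nkx2-1, had log2 sample intensities of 18.58, 18.71, 15.72 and 18.25 on the wild type arrays, 18.68, 18.46 and 18.41 on the knockout arrays and 18.55 and 18.56 on the Cdx2-labelled arrays. Wild type replicate 3, lowest in Foxa1, Foxa2 and Nkx2-1, was also the lowest in Sftpc. The summed sample intensity of 18 airway and lung secretory genes ran from 1071350 to 1600730 in wild type, from 1179310 to 1779130 in the knockout and from 586126 to 1345440 in the Cdx2-labelled group, and 0 of the 18 were called on the log ratio in any comparison (limma adjusted). The array with the lowest sum, 586126, was Cdx2-labelled replicate 1, which was the highest array in Foxa2 and Nkx2-1. Wild type replicate 3 had the next lowest sum, 1071350. The part of lung RNA in the levels of the 3 factors was not tested.

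**Figure D3:**
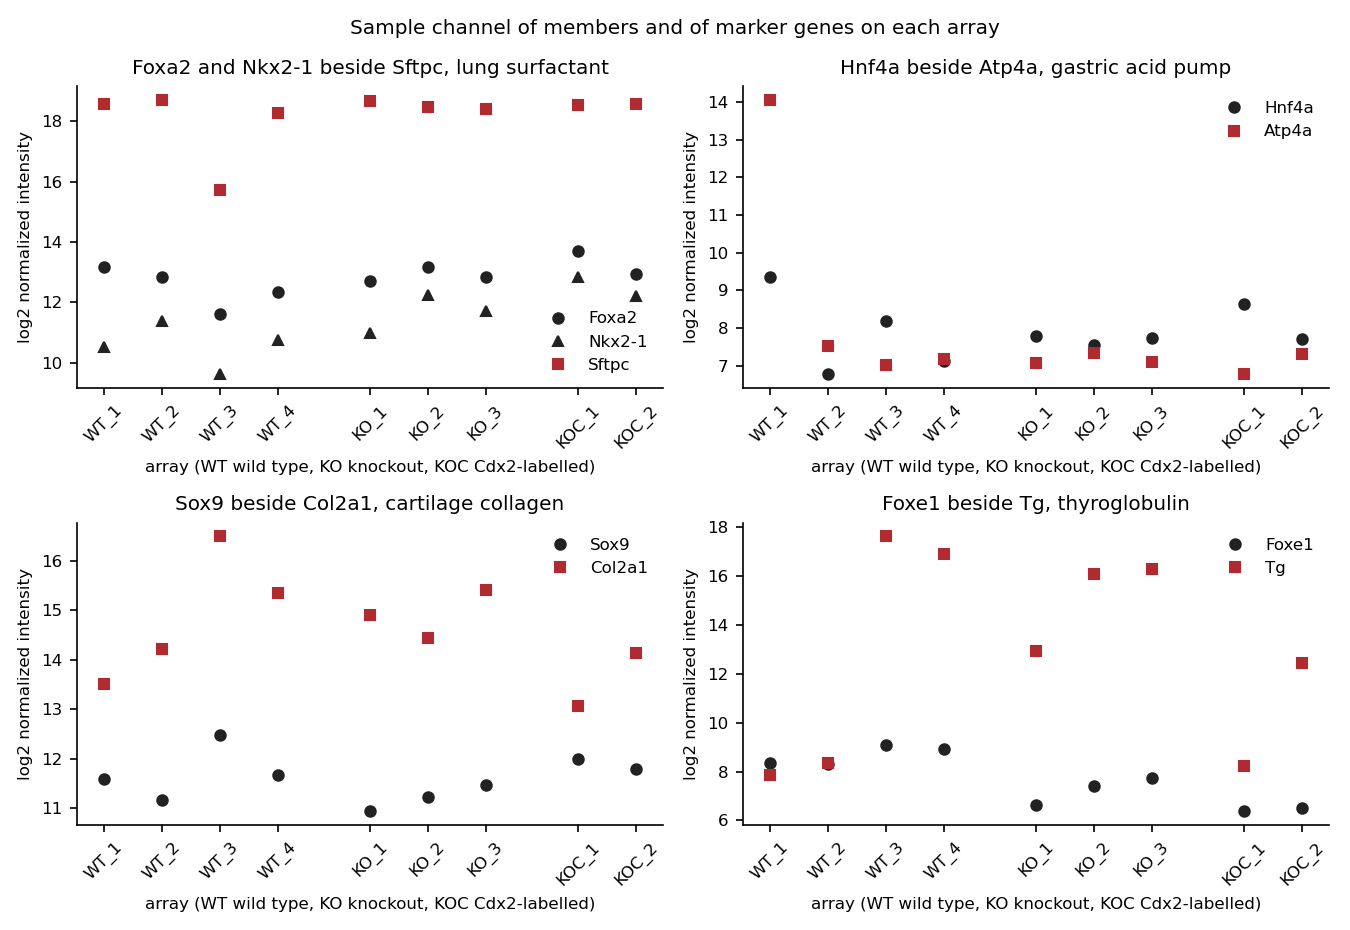
Log2 normalized sample intensity (y axis) on each array (x axis) of Foxa2 and Nkx2-1 beside Sftpc, of Hnf4a beside Atp4a, of Sox9 beside Col2a1 and of Foxe1 beside Tg. Black points are the transcription factors and red squares the marker genes, and levels of separate probes are not comparable with each other. Wild type replicate 3 is low in Foxa2, Nkx2-1 and Sftpc and high in Sox9 and Col2a1, and wild type replicate 1 is high in Hnf4a and Atp4a.

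GATA6 and GATA4 are zinc-finger factors of early endoderm, stomach and heart. Gata6 had log2 ratios of 1.10, 1.09, -0.21 and 0.30 on the wild type arrays, 0.75, 1.42 and 0.82 on the knockout arrays and 0.97 and 1.46 on the Cdx2-labelled arrays. Wild type replicates 3 and 4 were low and the other arrays mixed across genotypes, with differences from wild type of 0.43 for the knockout (SE 0.34, 95% interval -0.36 to 1.21) and 0.65 for the Cdx2-labelled group (SE 0.39, interval -0.24 to 1.54). Without wild type replicate 3 they were 0.17 and 0.39. The probe at position 1684 ran from -0.59 to 0.40 and also had wild type replicate 3 lowest, and the probe at position 734 was above background on 3 arrays.

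Gata4 was dim in both channels, at log2 intensities of 6.50 to 7.15 for the sample and 6.65 to 6.97 for the reference. So near background, its log2 ratio does not give a level against the reference. Its log2 ratio was 0.24, -0.13, -0.05 and -0.04 on the wild type arrays, -0.19, -0.06 and -0.21 on the knockout arrays and -0.15 and -0.24 on the Cdx2-labelled arrays. Both Cdx2-labelled arrays were lower than each wild type array, with a difference of -0.20 (SE 0.11, 95% interval -0.46 to 0.06, limma adjusted p = 0.398). Its brightest probe was above background on 8 of 9 arrays, wild type replicate 3 being the exception, and the other Gata4 probe ranged from -0.27 to 0.37 with overlapping groups.

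HNF4A is a nuclear receptor of gastric, intestinal and liver epithelium. Its brightest probe had log2 ratios of 2.22, 0.35, 0.63 and 0.67 on the wild type arrays, 1.18, 0.94 and 1.01 on the knockout arrays and 1.78 and 1.05 on the Cdx2-labelled arrays. Wild type replicate 1 was the highest of all arrays and the other wild type arrays were the lowest. The difference from wild type was 0.07 for the knockout (SE 0.42, 95% interval -0.88 to 1.03) and 0.45 for the Cdx2-labelled group (SE 0.47, interval -0.64 to 1.53), and without wild type replicate 1 these were 0.49 and 0.86, the second with a limma adjusted p of 0.119. The direction of the knockout difference turned in 7 of 13 processing alternatives. The other Hnf4a probes were above background on 4 and 6 arrays and ranged from -0.13 to 0.40.

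Wild type replicate 1 also stood apart in gastric genes. Atp4a, the acid pump of gastric parietal cells, had a log2 sample intensity of 14.06 there and 6.77 to 7.52 on the other arrays. The summed sample intensity of 16 gastric genes was 334378 in that array against 4010 to 25749 elsewhere, and 17 genes of hepatocytes and visceral endoderm summed to 256489 to 1594940 over the 9 arrays with 0 called on the log ratio (limma adjusted). The part of gastric and hepatic RNA in the Hnf4a level was not tested. Among the gastric genes, Psca, which encodes a cell surface protein found in several epithelia, fell by 1.66 in the knockout (limma adjusted p = 0.0361) and by 2.48 in the Cdx2-labelled group (limma adjusted p = 0.00973) against wild type, and the other 15 were not called on the log ratio.

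SOX9 acts in epithelial progenitors and is the master factor of cartilage. Its brightest probe had log2 ratios of 0.47, 0.05, 1.23 and 0.51 on the wild type arrays, -0.05, 0.24 and 0.44 on the knockout arrays and 0.79 and 0.64 on the Cdx2-labelled arrays. Wild type replicate 3 was the highest array, and the Cdx2-labelled arrays were above all knockout arrays by a difference of 0.50 (SE 0.30, 95% interval -0.18 to 1.19, limma adjusted p = 0.547). The difference from wild type was -0.35 for the knockout (SE 0.25, interval -0.93 to 0.23) and 0.16 for the Cdx2-labelled group (SE 0.29, interval -0.50 to 0.81), and without wild type replicate 3 these were -0.13 and 0.38. The reference channel of this probe fell by 0.16 from wild type to the knockout arrays (SE 0.04, limma adjusted p = 0.0411), and its part in the ratio was not tested. Col2a1, the main collagen of cartilage, was at 16.49 (log2 sample intensity) in wild type replicate 3 and at 13.06 to 15.40 on the other arrays. The 18 measured cartilage genes summed to 240857 in that array and to 22316 to 109111 elsewhere; the part of cartilage RNA in the Sox9 level was not tested.

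Sox9 is read by 3 probes, of which the one at position 786, printed here because it crosses an intron and disagrees with the others, gave a flatter pattern.
Sox9 probe at transcript position 786: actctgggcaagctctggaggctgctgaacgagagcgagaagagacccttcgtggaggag
It had log2 ratios of -0.25, -0.22, 0.03 and -0.09 on the wild type arrays, -0.35, -0.31 and -0.21 on the knockout arrays and -0.40 and -0.38 on the Cdx2-labelled arrays. On this probe the Cdx2-labelled arrays were the lowest, whereas the probe at position 3883 read 0.36 to 1.31, 0.33 to 0.80 and 0.70 to 0.92 in the 3 groups. Wild type replicate 3 was the highest array on all 3 probes. The probe at position 786 was dim, at log2 sample intensities of 6.68 to 7.10, where the other Sox9 probes read 10.36 to 12.49. The part of this low signal in its flatter pattern was not tested.

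On the log ratio, 0 of the 10 factors were called between the knockout and wild type, against 0.327% of all genes, and 2 had an unadjusted p under 0.05, Elf3 and Foxe1, where 7.79% of all genes did. Between the Cdx2-labelled group and the knockout 0 were called, as were 0% of all genes, with 2 factors under 0.05 unadjusted against 11.4%. Between the Cdx2-labelled group and wild type 2 were called, both lower, against 1.4% of all genes called in either direction and 0.971% called lower. Groups without overlapping arrays were seen for 2, 2 and 3 factors in the same order, and for 10.5%, 32% and 27.7% of all genes. The median difference of the 10 factors was 0.06, 0.04 and 0.12, beside 0.02, -0.03 and -0.00 over all genes.

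In the sample channel the counts were alike, with 0, 0 and 2 factors called, against 1.77%, 0.234% and 2.43% of all genes, and 1.56% of all genes called lower in the last. Groups without overlapping arrays were seen for 2, 3 and 3 factors, and for 18.3%, 35.7% and 31.1% of all genes. The 2 called were again Elf3 and Foxe1, both lower in the Cdx2-labelled group than in wild type. Of all 318 genes called on the log ratio between those groups, 220 were lower; scaling between arrays left 95 calls, 76 of them lower, and no factor among them.

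**Figure D4:**
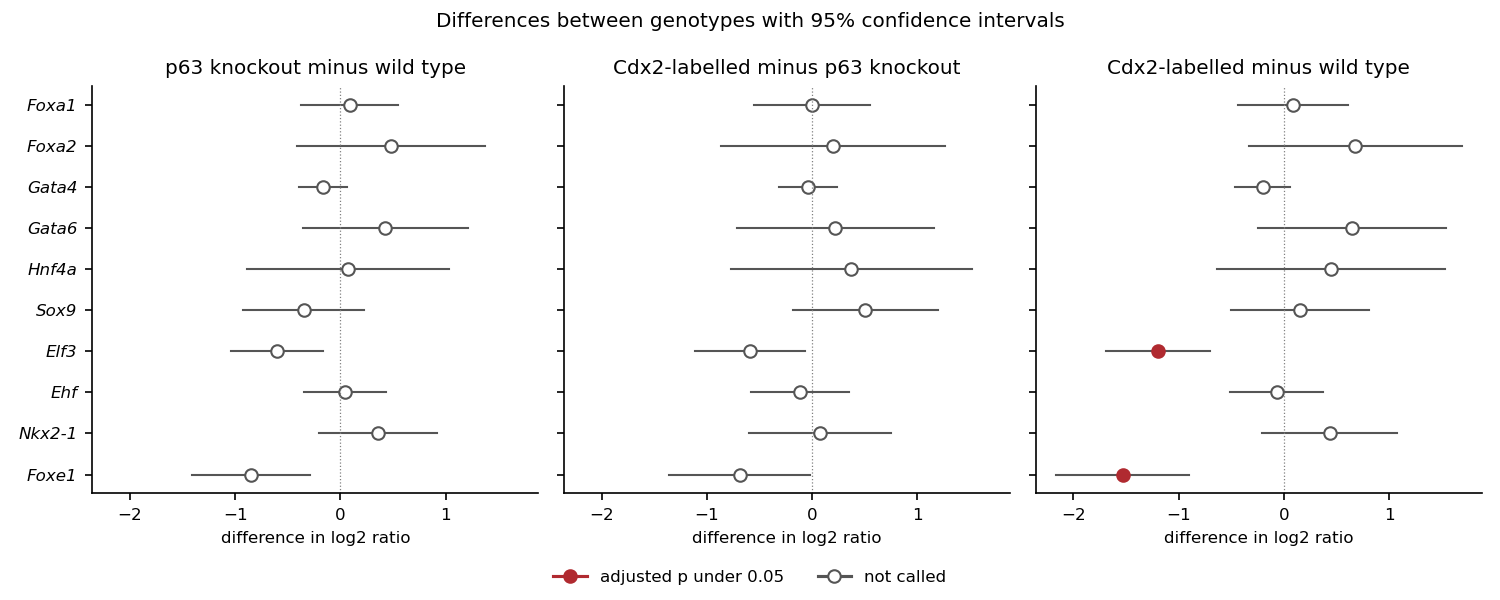
Difference in log2 ratio between genotypes (x axis) for each factor (y axis), with the 95% confidence interval of limma's fit as a line, in 3 panels for the 3 comparisons, which share arrays. Filled red points have an adjusted p under 0.05: Elf3 at -1.20 and Foxe1 at -1.53 between the Cdx2-labelled group and wild type, and no other.

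The calls of Elf3 and Foxe1 were near the threshold. Both genes were lower in the Cdx2-labelled group than in wild type under every alternative run. On the log ratio Elf3 was called in 8 of 14 processing alternatives and in 1 of 9 fits that left out an array, and Foxe1 in 9 of 13 and in 2 of 9. In the leave-out fits Elf3 was called without wild type replicate 3 (adjusted p = 0.0480, limma) and Foxe1 without wild type replicate 3 or without knockout replicate 1, so leaving out any other array ended the call.

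Other endoderm transcription factors were read from a list of 51, of which 47 were measured. On the log ratio 1 was lower in the knockout than in wild type, 0 were called between the Cdx2-labelled group and the knockout, 3 were lower in the Cdx2-labelled group than in wild type, and 0 were higher in any. The first was Klf5, a factor of proliferating gut epithelium, with log2 ratios of 1.75, 1.78, 1.77 and 1.90 on the wild type arrays, 1.18, 1.15 and 1.28 on the knockout arrays and 0.77 and 1.01 on the Cdx2-labelled arrays. The groups did not overlap, and Klf5 fell by 0.59 in the knockout (limma adjusted p = 0.0300) and by 0.91 in the Cdx2-labelled group (limma adjusted p = 0.00769) against wild type.

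Osr1, a zinc-finger factor of the foregut mesoderm, had log2 ratios of -0.33 to -0.04 on the wild type arrays, -0.36 to -0.24 on the knockout arrays and -1.15 and -1.10 on the Cdx2-labelled arrays. Wild type and knockout overlapped, and the Cdx2-labelled arrays lay apart below them. Osr1 fell by 0.97 against wild type (limma adjusted p = 0.00737), and the difference from the knockout was -0.83 (SE 0.10, limma adjusted p = 0.354). In the sample channel it also fell by 0.79 against the knockout (limma adjusted p = 0.0311). The third of the 3 was Foxq1, a forkhead factor of gastric epithelium, at -0.56 (limma adjusted p = 0.0476).

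The sample channel added Pitx1 and Pax9, factors of foregut and oral patterning, and Isl1, a factor of foregut mesenchyme and pancreas. Pitx1 fell by 2.46 in the knockout (limma adjusted p = 0.000813) and by 2.24 in the Cdx2-labelled group (limma adjusted p = 0.00355), Pax9 fell by 1.62 in the knockout (limma adjusted p = 0.0360), and Isl1 fell by 1.92 in the Cdx2-labelled group (limma adjusted p = 0.0448), all against wild type. On the log ratio these differences were smaller, with Pitx1 at -0.30 and -0.25, Pax9 at -1.19 and Isl1 at -1.04, and none passed (limma adjusted p from 0.0950 to 0.537). The log ratio is the sample minus the reference channel, so the reference, which holds the same RNA on every array, was lower too. For Pitx1 most of the fall in the sample channel was also in the reference channel. The part of the reference in these differences was not tested. For the list as a whole the median difference on the log ratio was -0.04, -0.02 and -0.05 in the 3 comparisons, beside 0.02, -0.03 and -0.00 over all genes.

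Simple epithelial genes, the keratins and junction genes of a columnar lining, gave 0 calls among 20 measured on the log ratio in any comparison (limma adjusted), and intestinal genes likewise 0 of 20. In the sample channel intestinal genes again gave 0 calls, and of the simple epithelial genes 1 was higher and 2 were lower in the knockout than in wild type, 0 were called between the Cdx2-labelled group and the knockout, and 1 was lower in the Cdx2-labelled group than in wild type. They were Spint2, a protease inhibitor, at 1.09, and Cldn4, a tight junction claudin, at -0.83 and Krt7, a keratin of simple epithelium, at -1.17 in the knockout, and Krt7 at -1.09 in the Cdx2-labelled group. On the log ratio, where none was called, the nearest simple epithelial gene was Krt19, a keratin of columnar and basal cells. It stood at -0.93 in the knockout and -1.23 in the Cdx2-labelled group against wild type.

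Foxe1, Gata4 and Hnf4a were not well above background on all 9 arrays and were left out here. Of the other factors, the 4 with the widest range of log2 ratio were taken. Each was compared with every one of 15491 genes above background on all 9 arrays, after subtracting each gene's mean log2 ratio. The genes nearest to Foxa2, whose range was 2.13, were Kit, Nxnl2 and Ptger3, with mean absolute differences of 0.129, 0.130 and 0.135 against a median of 0.412 over all genes. All 3 had wild type replicate 3 as their lowest array. Nearest to Nkx2-1, with a range of 1.31, were Ror1, Fgf1 and Slc38a5, at 0.0623, 0.0735 and 0.0763 against a median of 0.275, and these too were lowest in wild type replicate 3.

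Gata6 had a range of 1.67 and was nearest to Ano1, Corin and Slit2, at 0.160, 0.182 and 0.188 against a median of 0.428. Elf3 also had a range of 1.67, and its nearest genes were Fosl2, Serpinb8 and Ggt6, at 0.0958, 0.110 and 0.125 against a median of 0.470. These genes were picked for their likeness to Elf3, so their order over the arrays is no separate result. Fosl2 was at 0.07, 0.03, -0.23 and -0.28 on the wild type arrays, -0.69, -0.99 and -0.77 on the knockout arrays and -1.49 and -0.96 on the Cdx2-labelled arrays. The knockout and Cdx2-labelled arrays overlapped in all 3 genes. The arrays compared share 1 reference RNA and their slides, so likeness over the 9 arrays is a description only.

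**Figure D5:**
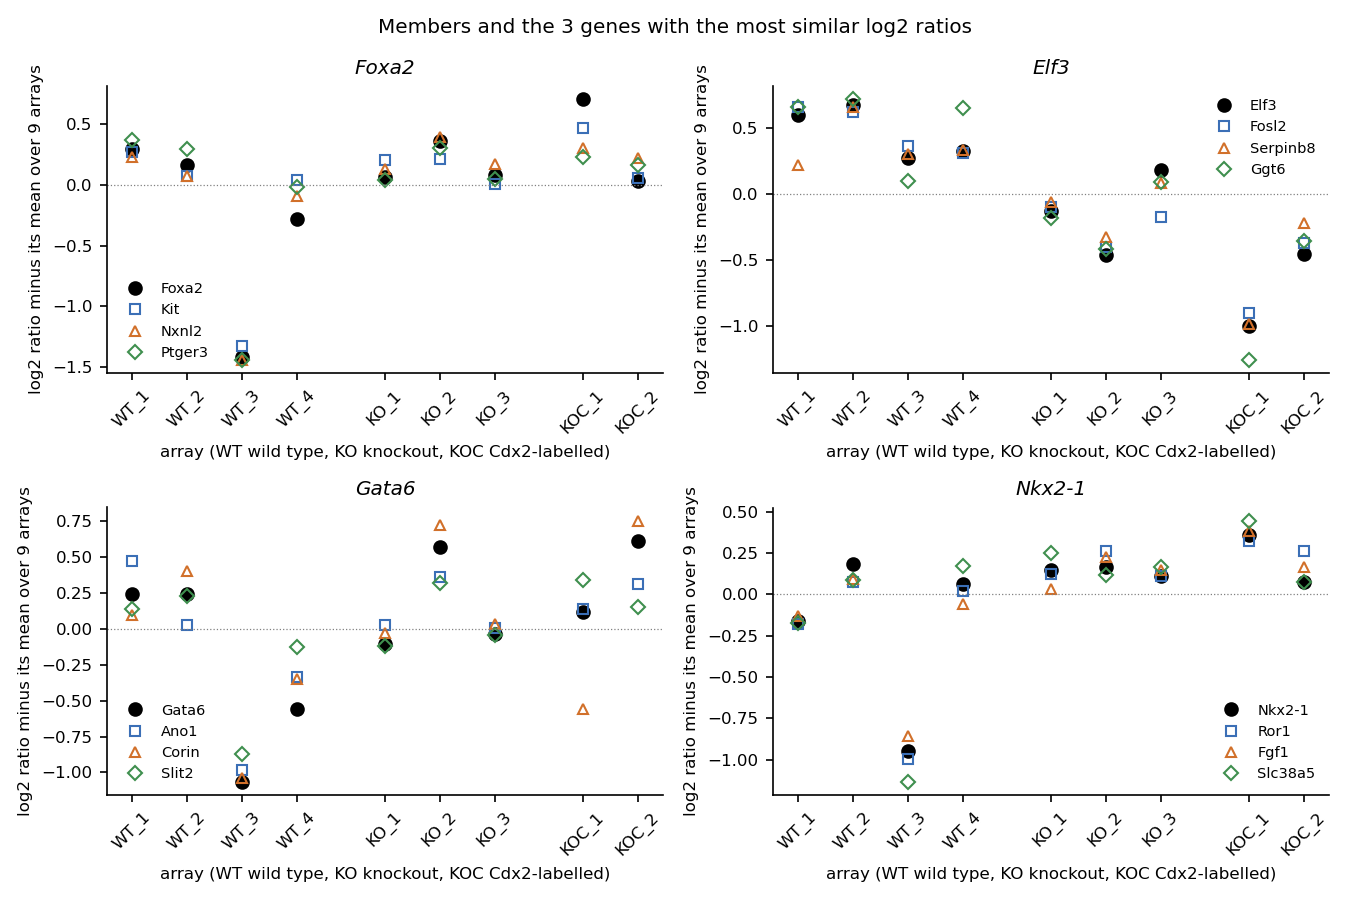
Log2 ratio minus its mean over the 9 arrays (y axis) for Foxa2, Elf3, Gata6 and Nkx2-1 (black circles) and for the 3 genes nearest to each (open symbols) on each array (x axis). Foxa2, Gata6 and Nkx2-1 and their nearest genes share a low point in wild type replicate 3, and Elf3 and its nearest genes are higher in the 4 wild type arrays than in the Cdx2-labelled arrays.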

How the data were processed

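Agilent 2-colour arrays of 9 samples were read from the scanner files. Per the file headers, these hold mean spot intensity and median local background intensity of each channel as written by Feature Extraction 10.7.3.1 with coordinates on mm9, whereas the submitters' processing notes name version 9.1. They also hold the log10 ratio of Cy5 over Cy3 deposited by the authors, made from background-subtracted, dye-normalized signals. The values of the authors' deposited table of 41267 probes are taken as log2 ratios of their processed signals, which its source does not state: each column correlated at 0.992 or more with its own array's scanner log2 ratio, and its medians of -0.213 to -0.0281 leave its centring unknown. It served as an alternative.

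Here intensities were corrected with normexp (offset 50) and normalized by loess within arrays in limma 3.58.1 (R 4.3.3), with 1639 of 45018 spots, the controls, at weight 0. The sample channel was taken after loess and Aquantile normalization. Outlier spots were left out, spots of a probe averaged, probes kept if the scanner called their Cy5 signal well above background on 2 or more arrays, and each gene read from its brightest probe. Fits used lmFit and eBayes on all 9 arrays, with Benjamini-Hochberg adjustment over 22651 genes at 0.05. The script was tested on simulated data. Gene names came from RefSeq by accession for 26918 probes and by symbol or synonym for 5899, and 8357 kept the file's name. The number of arrays limits the precision. Alternatives covered background correction, normalization, filters, probe choice, variance prior, array weights and single arrays left out.

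The 10 members and the gene lists were chosen with earlier results of these data known. Named genes were all members; of each other list those called, up to 2 in each direction, or the lowest p; and the 3 genes nearest to each of 4 members. Sftpc, Tg, Atp4a and Col2a1, and the further called endoderm factors Foxq1 and, in the sample channel, those beyond the first 2, were named after their values were seen.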

Additional observations from a re-analysis of the deposited data

Results flagged for a closer look

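The log2 ratio of Foxa1 in wild type replicate 3 was 0.94, where the other wild type arrays lay at 1.75 to 1.81. The gap to the nearest array was 0.933 of the group's whole range, above Dixon's critical value for 4 samples. Of 20 such groups examined, the 10 members on 2 scales in wild type, this was the only value past its limit, and chance alone passes about 1 group in 20. The same array had the lowest log2 ratio of the 9 for Foxa1, Foxa2, Gata6, Ehf and Nkx2-1 and the highest for Sox9.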

How the results depend on the processing

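Elf3 and Foxe1, the 2 factors called lower in the Cdx2-labelled group than in wild type, were lower there under every alternative run, and no called result reversed. On the log ratio the count of called factors was 0 with a normexp offset of 10, with scaling between arrays and with only the 2 groups compared, and 1 with median centring, with array weights and with a filter on all 9 arrays, which leaves Foxe1 untested. In the sample channel it was 1 with that filter, with only the 2 groups and with array weights, which also called Foxe1 lower in the knockout (1 factor, -1.31, limma adjusted p = 0.0262). With each array left out in turn the count was 0 to 2 on either scale. Leaving out wild type replicates 1 and 3 together, chosen after seeing the data, gave 0 on both scales. With the replicate number as a block the count was 0 on both scales, with Elf3 at -1.23 and Foxe1 at -1.33 (limma adjusted p = 0.284 and 0.279). Deviations from the group means correlated at -0.134 to 0.188 between samples of the same number (mean 0.0375, 2 of 7 over 0.1). Between samples of unlike number they correlated at -0.197 to 0.193 (mean -0.0147, 3 of 19 over 0.1). The deviations of the 2 Cdx2-labelled arrays mirror each other by construction. These correlations therefore cannot settle whether samples of the same number share more than a number. The causes were not tested. The adjusted p ranged from 0.0212 to 0.284 for Elf3 and from 0.0159 to 0.279 for Foxe1 over the processing alternatives, and Foxe1 itself ranged from -2.58 to -1.33. The calls over all genes on the log ratio moved too, from 318 between the Cdx2-labelled group and wild type to 802 without background correction and 8 with the block, and from 74 between the knockout and wild type to 218 with array weights and 9 with the block. In the sample channel the calls between the knockout and wild type went from 402 to 970 with array weights, 495 of them lower. Signal over background limits Foxe1, Gata4 and Hnf4a, each below background on at least 1 array.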
